A study of Rhodotorula toruloides with 18 samples.

Results

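A set of 22 of the 8484 genes measured in the oil-storing yeast Rhodotorula toruloides was at a higher transcript level on succinate than without carbon in the wild type, with no matching difference on cellobiose. The members were chosen by their own measured values. Genes had to average 1 TPM or more over all libraries, which 7938 did. TPM is a transcript level scaled by transcript length and by library total. The wild type mean of log2(TPM + 1) had to be at least 1 higher on succinate than without carbon. It had to be less than 0.5 higher on cellobiose than without carbon, and the strains had to differ by less than 0.75 on cellobiose. The first condition held for 279 genes, adding the second took away 247 of these, and adding the third took away 10 more. Since fewer than 60 genes were left, all were kept, ranked by the smallest of 3 differences: succinate minus no carbon in each strain, and succinate minus cellobiose in the wild type. The description of these genes as induced by succinate holds only in part. For 2 of the 22 the deletion strain was lower on succinate than without carbon. For 15 of the 22 the wild type replicates of these media overlapped. Overlap was also common among all tested genes, of which 3.21% were all higher on succinate and 33.3% all lower.

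The wild type carried a hygromycin resistance cassette at yku70, the gene of a DNA end-joining protein, in strain IFO0880. The deletion strain carried the same cassette together with one for nourseothricin resistance at cbr1, so that the controls also lacked yku70. Cells grown overnight in rich glucose medium (YPD) at 28 degrees C were washed and kept for 8 h in a minimal medium (yeast nitrogen base, pH 6.2) that held no carbon source, 1% succinate or 1% cellobiose, in constant light with shaking at 250 rpm. Each of the 6 groups held 3 libraries of poly-A RNA, described as biological triplicates.

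Succinate is a dicarboxylic acid of the tricarboxylic acid cycle, where succinate dehydrogenase oxidizes it to fumarate. A yeast that lives on it alone must take it up through a carboxylate transporter, draw energy from the cycle and make sugars by gluconeogenesis, starting with phosphoenolpyruvate carboxykinase. Cellobiose is a glucose disaccharide that beta-glucosidases split. Preferred sugars, glucose above all, turn down genes for other carbon sources, which is called carbon catabolite repression. Whether cellobiose acts in this way here was not tested. The identifiers of the deposited table are not paired with names, and 0 of them were found among 8171 RefSeq genes of another strain, NP11. Members are therefore given by identifier, with no role, and no list of pathway genes could be examined.

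The number of reads per library was unknown. The median level over the 7938 genes ran from 15.5 TPM in wild type replicate 3 on succinate to 42.1 TPM in deletion replicate 1 without carbon. In every no-carbon group and every succinate group, replicate 3 had the lowest median. Without carbon, libraries of both strains with the same number shared deviations from their group means, with r = 0.606, 0.236 and 0.686 across genes for replicates 1, 2 and 3. Membership rested on single libraries too. When the wild type lost its no-carbon replicate 3, the same conditions kept 5 of the 22, without replicate 1 in that group 8, without wild type replicate 3 on succinate 9, and without wild type replicate 3 on cellobiose 13.

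The members fell into 2 classes of level, which were separated after their values had been seen. The mean over the 18 libraries was between 894 and 10647 TPM for 13 members and at most 142 TPM for the other 9. Of the 13, 12 were among the 100 genes with the highest mean TPM of the whole table, and RTO4_10376, RTO4_14870, RTO4_16419, RTO4_13165 and RTO4_12704 stood at ranks 3, 5, 8, 9 and 10. At the other end, RTO4_13384 had a mean of 2.06 TPM and stood at rank 7681.

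**Figure D1:**
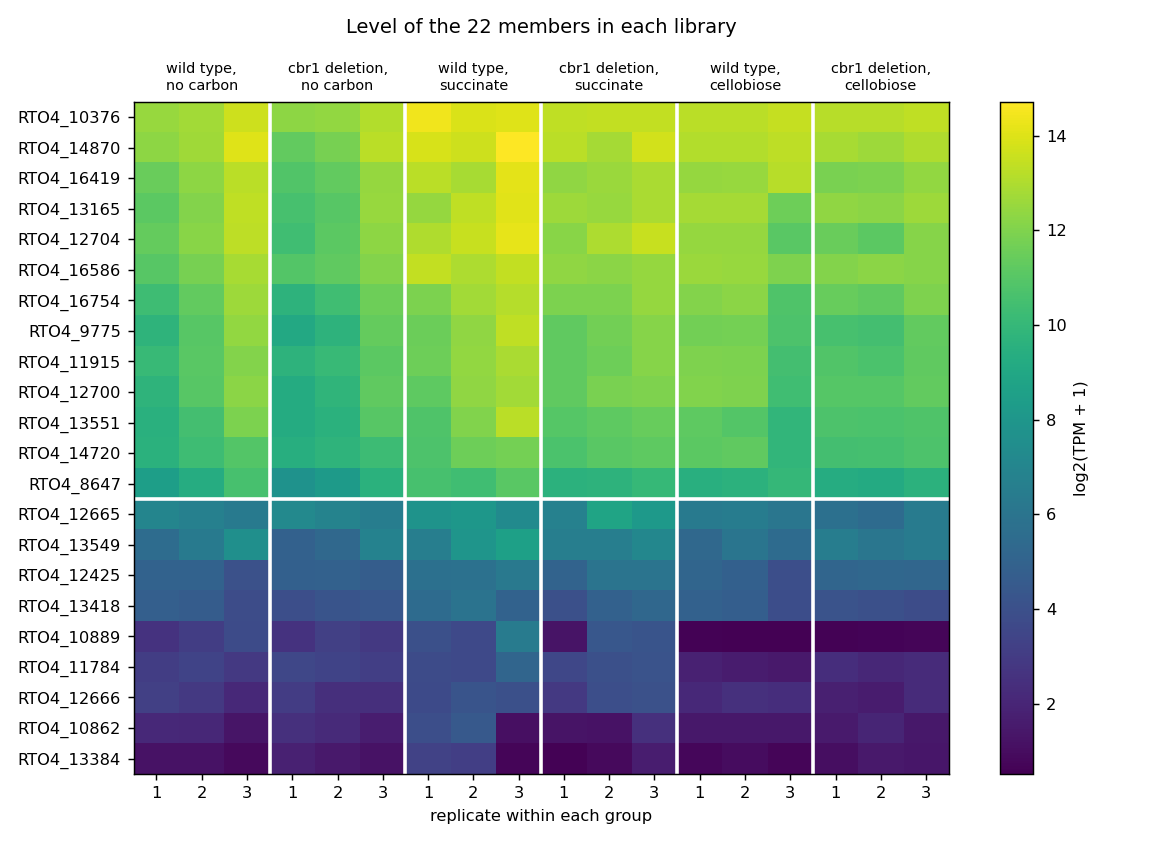
Level of each of the 22 members, as log2(TPM + 1), in each of the 18 libraries, with rows in order of mean TPM and the 13 abundant members above the white line. In the abundant members the third replicate is the brightest of its group without carbon, and RTO4_10889 is darkest in all 6 cellobiose libraries.

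The most abundant member, RTO4_10376, was at 5866, 6901 and 12869 TPM in the wild type without carbon and at 21867, 15674 and 16680 TPM on succinate. On cellobiose it was at 9600, 9760 and 11478 TPM. Every succinate library of the wild type was thus above every library of the other media, with means of 18074 ± 3324 TPM on succinate and 8545 ± 3780 TPM without carbon (SD, n = 3), a 2.12-fold ratio. The deletion strain held 5017, 5564 and 8748 TPM without carbon, 10467, 10747 and 10779 TPM on succinate and 9475, 9519 and 10638 TPM on cellobiose. There the succinate and cellobiose libraries overlapped, and both media stood above no carbon.

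RTO4_12704, the member with the highest rank score, was at 2684, 4709 and 10233 TPM in the wild type without carbon, at 8368, 11739 and 18639 TPM on succinate and at 5768, 5646 and 2192 TPM on cellobiose. Replicate 3 without carbon lay above replicate 1 on succinate, so these groups overlapped, while every succinate library was above every cellobiose library. Deletion libraries held 1318, 2239 and 5055 TPM without carbon, 4672, 8133 and 12029 TPM on succinate and 2849, 2289 and 4584 TPM on cellobiose. Succinate gave the highest mean in both strains, and the ratio of succinate to no-carbon means was 2.20 in the wild type and 2.88 in the deletion strain.

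RTO4_14870 was at 4980, 6729 and 17011 TPM in the wild type without carbon and at 14779, 12816 and 26989 TPM on succinate, the highest level of any member in any library. On cellobiose it was at 8715, 8655 and 10171 TPM. The no-carbon and succinate libraries overlapped through replicate 3 without carbon. RTO4_16586 was at 2081, 3648 and 7463 TPM without carbon, at 10822, 8152 and 11121 TPM on succinate and at 6258, 5814 and 4028 TPM on cellobiose. It and RTO4_10376 were the members of the abundant class whose succinate libraries were above all no-carbon libraries in both strains.

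RTO4_13551, second by rank score, showed how far replicates could differ. It was at 736, 1415 and 3887 TPM in the wild type without carbon and at 1812, 4227 and 9700 TPM on succinate, with 2362, 1935 and 919 TPM on cellobiose. The succinate mean of 5246 ± 4041 TPM and the no-carbon mean of 2013 ± 1658 TPM (SD, n = 3) had a ratio of 2.61, the largest of the abundant class. The spread on succinate was smaller in the deletion strain, at 2007, 2303 and 2712 TPM.

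The other 8 abundant members, RTO4_16419, RTO4_13165, RTO4_16754, RTO4_9775, RTO4_11915, RTO4_12700, RTO4_14720 and RTO4_8647, had similar ratios. Over the 13, the ratio of succinate to no-carbon means ran from 1.89 to 2.61 in the wild type and from 1.66 to 2.88 in the deletion strain. Wild type replicate 3 without carbon was the highest of its group for 13 of 13, at 2.19 to 6.39 times replicate 1, and deletion replicate 3 was the highest for 13 of 13 as well. Wild type replicate 3 on succinate was the highest of its group for 12 of 13. On cellobiose the wild type was divided, where replicate 3 was the lowest for 9 of 13. It was the highest for the other 4, RTO4_10376, RTO4_14870, RTO4_16419 and RTO4_8647.

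The succinate replicates of the wild type were all above those without carbon for 7 of the 22 members, 2 abundant and 5 of low level. Of all tested genes 3.21% met this criterion, and since the members were chosen on this difference the count says nothing more about them. Without wild type replicate 3 in no carbon it held for 20 of 22, including 13 of 13 abundant members, against 4.13% of genes. That exclusion was chosen after seeing the data, and the difference is the one that chose the members. The count of 20 is therefore no support for them. Without this library the rule itself kept 5 of the 22. In the deletion strain the succinate replicates were all above those without carbon for 8 of 22 (13.1% of genes). Without deletion replicate 3 in no carbon, also left out after seeing the data, it was 15 of 22 (13.8% of genes). Against cellobiose, the wild type replicates on succinate were all higher for 12 of 22 (8.09% of genes) and the deletion replicates for 8 of 22 (17.5% of genes). By the rule's first 2 conditions every member had a higher wild type mean on succinate than on cellobiose. The smallest difference observed was 0.61 on the log2(TPM + 1) scale. The count of 12 thus says nothing more about them either, and the rule's limit between strains on cellobiose favours the deletion count. The comparisons of succinate with no carbon and with cellobiose share the succinate libraries, and those of both carbon sources with no carbon share the no-carbon libraries.

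In sum the 22 members held 2.69%, 4.38% and 9.65% of all TPM in the wild type without carbon, and 8.89%, 9.87% and 15.9% on succinate. On cellobiose they held 6.45%, 6.43% and 4.96%. Wild type replicate 3 without carbon thus reached the level of the succinate libraries. In the deletion strain the shares were 1.88%, 2.47% and 5.44% without carbon, 5.75%, 6.32% and 8.28% on succinate and 4.54%, 4.33% and 5.62% on cellobiose. The group means were 11.6 ± 3.81% in the wild type and 6.78 ± 1.33% in the deletion strain on succinate (SD, n = 3). The 9 members of low level made up little of this, with 654 ± 158 TPM in all in the wild type on succinate and 280 ± 38.1 TPM without carbon.

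**Figure D2:**
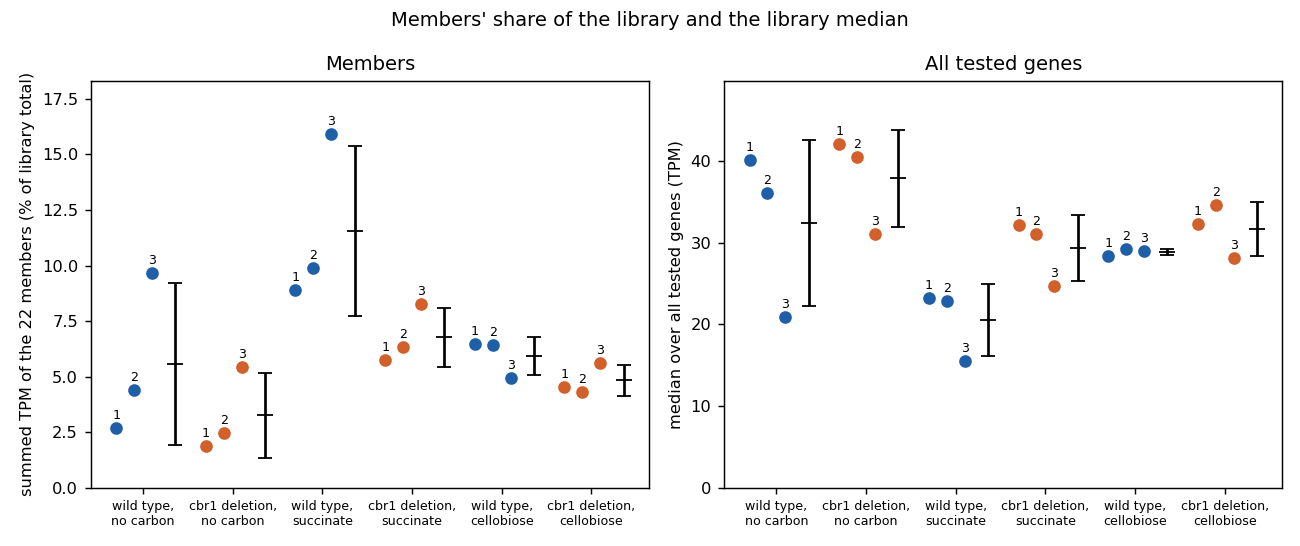
Left, summed TPM of the 22 members as a percentage of each library's total; right, median TPM of the 7938 tested genes; points are libraries marked with their replicate number (blue, wild type; orange, cbr1 deletion), bars the mean ± SD of 3. The libraries with the largest members' share, 15.9% and 9.87% in the wild type on succinate and 9.65% in wild type replicate 3 without carbon, are those with the lowest medians.

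The share of the members was highest where the median of all genes was lowest. The 4 libraries with a median under 25 TPM besides deletion replicate 3 on succinate were the 3 wild type succinate libraries and wild type replicate 3 without carbon. TPM adds up to the same total in each library, so a larger share of abundant genes goes with lower values elsewhere, and the part of this in the members' differences was not tested. After scaling each library by the median ratio of its genes, the members' median difference between succinate and no carbon was 1.80 in the wild type and 1.45 in the deletion strain. Before scaling it was 1.21 and 1.06, beside medians of -0.59 and -0.39 over all tested genes. After quantile normalization the members' median difference was 1.029 in the wild type and 1.097 in the deletion strain. Median-ratio scaling thus raised the wild type value and quantile normalization lowered it.

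Among the 9 members of low level, RTO4_12665 and RTO4_12666 followed each other across the libraries. RTO4_12665 was at 125, 103 and 79.4 TPM in the wild type without carbon, at 224, 263 and 156 TPM on succinate and at 82.8, 88.1 and 66.9 TPM on cellobiose. Like some other low members, it had no overlap between its wild type succinate libraries and those of the other media. As in RTO4_13418, its wild type replicate 3 was the lowest of its group in all media. In the deletion strain it was at 147, 116 and 93.5 TPM without carbon, at 106, 442 and 288 TPM on succinate and at 53.0, 43.8 and 83.9 TPM on cellobiose, with replicate 1 on succinate among the no-carbon values.

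RTO4_12666 was at 8.25, 6.40 and 3.54 TPM in the wild type without carbon, at 12.2, 17.6 and 14.6 TPM on succinate and at 3.45, 4.59 and 4.25 TPM on cellobiose. The deletion strain gave 7.16, 4.44 and 4.33 TPM without carbon, 6.24, 14.4 and 15.7 TPM on succinate and 2.37, 1.99 and 3.80 TPM on cellobiose. Across the 18 libraries the levels of this pair, on the log2 scale, had r = 0.93. Their identifier numbers are consecutive, though the position of the genes was not given.

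RTO4_10889 and RTO4_11784 were distinguished by their low level on cellobiose. RTO4_10889 was at 5.04, 7.45 and 12.3 TPM in the wild type without carbon, at 15.0, 11.5 and 83.9 TPM on succinate and at 0.491, 0.471 and 0.433 TPM on cellobiose. The mean on succinate, 36.8 ± 40.9 TPM (SD, n = 3), rested on replicate 3, and the groups overlapped. In the deletion strain it was at 5.01, 8.21 and 6.24 TPM without carbon, at 1.37, 19.4 and 17.5 TPM on succinate and at 0.518, 0.583 and 0.636 TPM on cellobiose. All 6 cellobiose libraries were thus below every other library.

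RTO4_11784 was at 7.66, 9.42 and 6.39 TPM in the wild type without carbon, at 12.7, 11.4 and 35.0 TPM on succinate and at 2.54, 2.07 and 1.83 TPM on cellobiose. The 3 wild type groups did not overlap with each other. Its deletion libraries held 10.8, 9.23 and 8.04 TPM without carbon, 10.7, 14.8 and 16.9 TPM on succinate and 4.13, 3.36 and 3.75 TPM on cellobiose. RTO4_10889 and RTO4_11784 had r = 0.907 over the 18 libraries and share the high wild type replicate 3 on succinate.

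The members with negative rank scores were RTO4_10862 and RTO4_13384, of which the wild type on succinate held high levels in replicates 1 and 2 alone. RTO4_10862 stood at 14.1, 21.2 and 1.18 TPM in that group and at 3.39, 3.23 and 1.49 TPM without carbon. RTO4_13384 was at 8.89, 7.85 and 0.655 TPM on succinate and at 1.28, 1.31 and 0.842 TPM without carbon. In both genes replicate 3 on succinate lay below all 3 no-carbon libraries, the reverse of the other 2. In the deletion strain on succinate RTO4_10862 was at 1.38, 1.29 and 4.59 TPM and RTO4_13384 at 0.490, 0.868 and 2.20 TPM. In both, replicates 1 and 2 were below all no-carbon libraries of that strain and replicate 3 was within their range. Their levels had r = 0.963 across the 18 libraries.

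The remaining 3 members of low level were RTO4_13549, RTO4_12425 and RTO4_13418. RTO4_13549 was at 44.7, 77.9 and 191 TPM in the wild type without carbon, at 95.2, 246 and 389 TPM on succinate and at 38.1, 64.4 and 43.7 TPM on cellobiose. It followed the abundant RTO4_13551 across the libraries, with r = 0.904, and shared with the abundant class the high replicate 3 without carbon. RTO4_12425 was at 30.2, 30.3 and 15.2 TPM without carbon and at 53.8, 55.1 and 76.3 TPM on succinate, with no overlap. RTO4_13418 was at 27.1, 24.3 and 13.1 TPM without carbon and at 43.8, 60.7 and 31.0 TPM on succinate, also with no overlap.

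Over the 18 libraries the 13 abundant members moved together, with a median r of 0.894 over their 78 pairs (0.731 to 0.985). The 36 pairs of low members had a median r of 0.522, from 0.107 to 0.963, and the 117 pairs across the classes 0.329, from -0.0892 to 0.904. These values are descriptions: all pairs share the libraries, their scaling and the rule that chose the genes.

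At the edge of the rule, RTO4_12665 and RTO4_13418 were just inside the condition on succinate, with wild type differences of 1.05 each on the log2(TPM + 1) scale, and RTO4_12438 and RTO4_12482 were just outside with 0.97 and 0.96. For the condition on cellobiose, RTO4_14720 and RTO4_12700 were inside with 0.48 and 0.46, and RTO4_8751 and RTO4_8844 outside with 0.51 and 0.52. For the difference between strains on cellobiose, RTO4_13549 was inside with 0.75 and RTO4_14698 outside with 0.76. The members are thus not set apart from other genes by a gap.

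**Figure D3:**
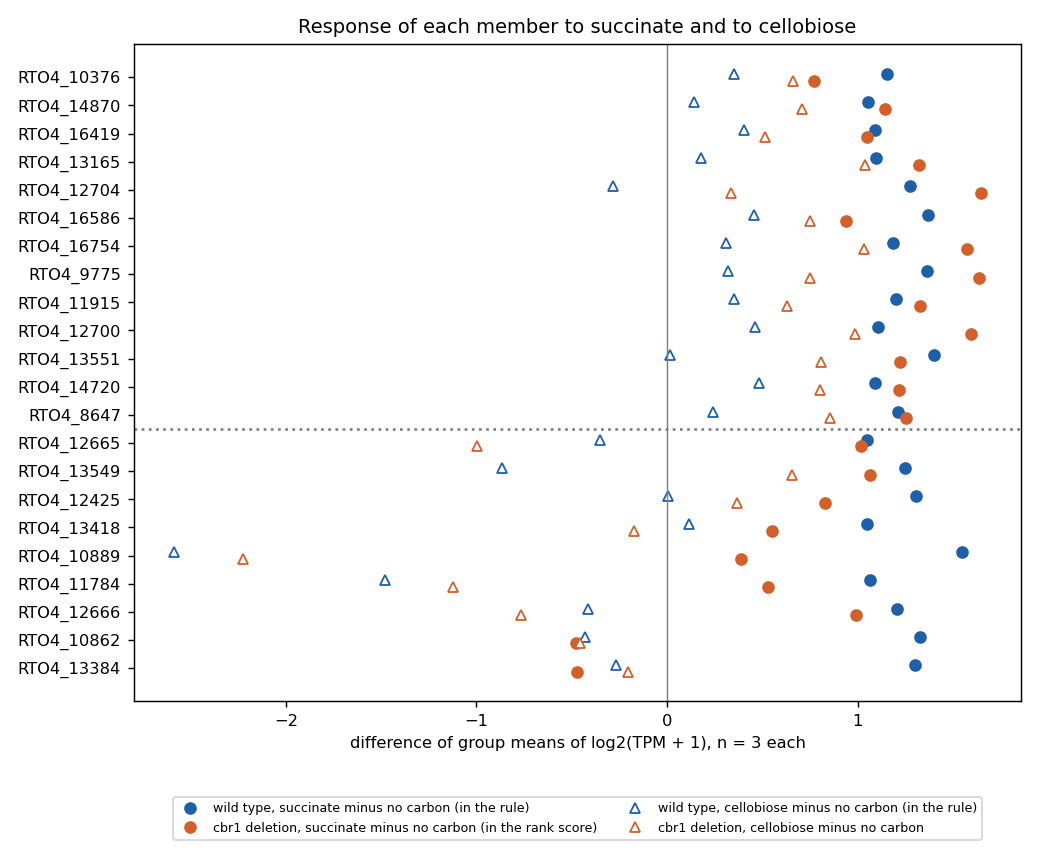
Differences of group means of log2(TPM + 1) from the no-carbon medium of the same strain, for succinate (filled circles) and cellobiose (open triangles) in the wild type (blue) and the cbr1 deletion (orange); abundant members stand above the dotted line. All 22 blue circles are at or above 1.05 by the rule, and the orange circles of RTO4_10862 and RTO4_13384 are at -0.48 and -0.47.

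The deletion strain allowed a look at media that the rule compared only in the wild type. Its difference between succinate and cellobiose was positive for 20 of the 22 members, with a median of 0.50 on the log2(TPM + 1) scale beside -0.17 over all tested genes. Calls were made by limma with Benjamini-Hochberg adjustment over all 7938 genes, and at least 1 on the log2 scale. On succinate against cellobiose 4 of the 22 rose and 0 fell. Of all tested genes 454 were called higher and 660 lower (14.0% in either direction). The rule held down the deletion strain's level on cellobiose, through its limits on that medium and on the difference between strains there. That favours a positive difference, so these counts are no independent support. The succinate libraries of the deletion strain enter the filter on mean TPM and the rank score, and the ranking left out no gene. The 4 were RTO4_12665 (2.02 ± 0.40 SE, limma adjusted p = 0.00273), RTO4_12666 (1.76 ± 0.34, limma adjusted p = 0.00247), RTO4_11784 (1.65 ± 0.33, limma adjusted p = 0.0032) and RTO4_10889 (2.61 ± 0.65, limma adjusted p = 0.0117). All 4 belong to the low class. The call of RTO4_10889 was lost without deletion replicate 2 on succinate (limma adjusted p = 0.0576), without replicate 3 there (0.0848) or without deletion replicate 1 on cellobiose (0.0515).

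None of the 13 abundant members passed the test between succinate and cellobiose in the deletion strain. Their differences ran from 0.11 for RTO4_10376 to 1.31 for RTO4_12704, the latter with a limma adjusted p of 0.113, and the ratio of means had a median of 1.39 in the deletion strain and 1.87 in the wild type. The difference between these strains was not tested, as the rule used the wild type values.

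Between cellobiose and no carbon in the deletion strain the classes went in opposite directions. The rule limited this comparison, as it capped the wild type difference and tied the deletion strain's cellobiose level to that of the wild type. The directions and calls below are therefore no independent support. All 13 abundant members had higher means on cellobiose, by 0.33 to 1.04 on the log2 scale, and 0 of them were called. Of the 9 low members 7 had lower means, the direction of the median over all tested genes, which was -0.21. Beside 1003 tested genes called lower and 367 higher (17.3% in either direction), 2 of the 22 members fell by the test and 0 rose. These were RTO4_10889 (-2.22 ± 0.65 SE, limma adjusted p = 0.0174) and RTO4_11784 (-1.12 ± 0.33, limma adjusted p = 0.019). Neither was called after median-ratio scaling (limma adjusted p = 0.0934 and 0.109) or quantile normalization (0.159 and 0.188). With single libraries left out, both were lost without deletion replicate 2 in no carbon (0.0674 and 0.0555). RTO4_10889 was also lost without deletion replicate 1 on cellobiose (0.051). RTO4_11784 was also lost without deletion replicate 1 in no carbon (0.0826), deletion replicate 2 on cellobiose (0.0672) or replicate 3 there (0.0581). In the wild type their differences were -2.59 and -1.48, which the rule allowed without asking for.

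The effect of the cbr1 deletion on succinate was a comparison that the rule did not contain, although the wild type succinate libraries enter its first condition. The deletion strain had lower means for 21 of the 22 members, with a median difference of -0.75 on the log2(TPM + 1) scale, while the median over all tested genes was 0.47. The exception was RTO4_12665, at 0.18 ± 0.40 (SE). By limma 0 of the 22 members passed, as did 0.0378% of all tested genes, and 5 of the 22 had an unadjusted p under 0.05, beside 2149 of 7938 genes. Choosing genes with a high wild type level on succinate favours a negative difference. For 3 of the 22, RTO4_10376, RTO4_16586 and RTO4_8647, all deletion libraries were below all wild type libraries on succinate, a criterion met by 0.529% of genes.

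RTO4_16586 was at 5187, 4919 and 5679 TPM in the deletion strain on succinate, against the 8152 to 11121 TPM of the wild type, a difference of -0.92 ± 0.42 (SE, limma adjusted p = 0.171). The largest differences were those of RTO4_10862, -1.53 ± 0.56 (limma adjusted p = 0.151), RTO4_10889, -1.41 ± 0.65 (limma adjusted p = 0.173), and RTO4_13384, -1.34 ± 0.46 (limma adjusted p = 0.151). RTO4_10862 and RTO4_13384 were called without wild type replicate 3 on succinate (limma adjusted p = 0.00565 and 0.00333) and without deletion replicate 3 on succinate (0.0398 and 0.0362), the libraries that stand apart in these genes. The count of 0 members became 2 with either library left out. Both genes met the rule's first condition through their high wild type replicates 1 and 2 on succinate. Their choice thus favours these calls, which are no independent support for a genotype effect. The other abundant members differed by -0.36 to -0.88, each within a limma adjusted p of 0.196 to 0.62.

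**Figure D4:**
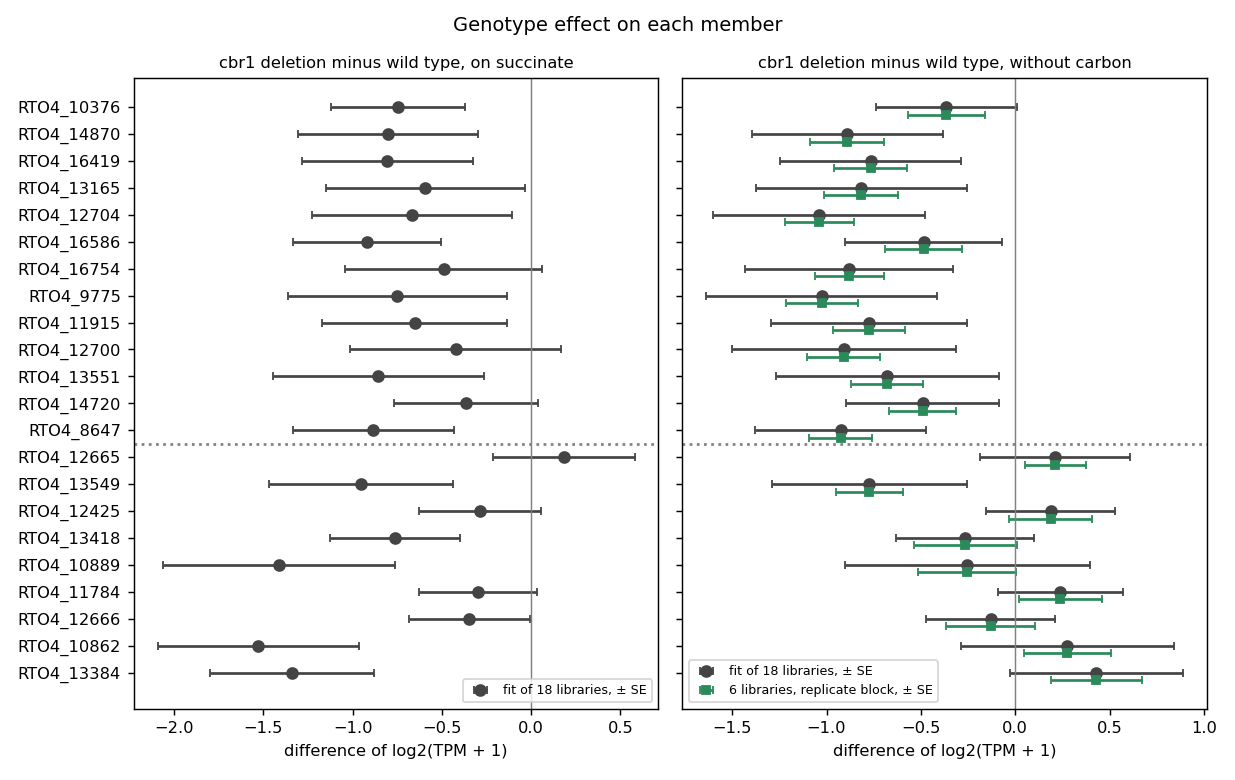
Difference between the cbr1 deletion and the wild type for each member, as log2(TPM + 1) with SE, on succinate (left) and without carbon (right), from the fit of all 18 libraries (grey circles) and, without carbon, from the 6 libraries with the replicate number as a block (green squares). On succinate 21 of 22 points are below 0, and without carbon all 13 abundant members are.

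Without carbon the abundant members were again lower in the deletion strain, with a median of -0.82. The low members were mixed, with a median of 0.19, higher means for 5 of 9 and lower means for RTO4_13549, RTO4_13418, RTO4_10889 and RTO4_12666. Over all tested genes the median was 0.27. In the fit of all 18 libraries 0 of the 22 members were called, as were 0.0756% of genes, and no member had an unadjusted p under 0.05, beside 754 of the genes. Since same-numbered libraries deviated together in this medium, the comparison was also made within numbers. The deletion library was below the wild type library of the same number in all 3 pairs for 14 of the 22 members, 13 of 13 abundant ones and RTO4_13549, beside 13.1% of all tested genes.

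When the 6 no-carbon libraries were fitted with the number as a block, 2 of the 22 members fell in the deletion strain past both limits, beside 3.57% of genes called in either direction. These were RTO4_12704 (-1.04 ± 0.18 SE, limma adjusted p = 0.02) and RTO4_9775 (-1.03 ± 0.19, limma adjusted p = 0.0213). By the adjusted p alone it was 10 of the 22, all of them lower and 9 of them abundant, beside 8.55% of genes. The pairs of RTO4_12704 differed by -1.03, -1.07 and -1.02, and those of RTO4_9775 by -0.67, -1.34 and -1.07. RTO4_10376, the most abundant member, differed by -0.23, -0.31 and -0.56 and did not pass (limma adjusted p = 0.215). The numbers do not single out the pairs, since wild type replicate 2 had a higher r with deletion replicate 1 (0.354) than with deletion replicate 2 (0.236). The block was chosen after the same data had shown the shared deviations, so its p values may be too small. The fit of all 18 libraries called 0 members. Wild type no-carbon libraries also enter the first 2 conditions of the rule.

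For the difference of the genotype effect between succinate and no carbon, limma called 0 of the 22 members and 0 of all tested genes. No conclusion is drawn from this for the members, since that difference contains the wild type contrast by which they were chosen.

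Other abundant genes were also at higher levels on succinate than without carbon. Of the 100 genes with the highest mean TPM, 88 were no members. Their median difference was 0.92 in the wild type and 1.17 in the deletion strain, beside -0.59 and -0.39 over all tested genes. A wild type difference of at least 1 was found for 40 of the 88, and for 279 of all 7938 tested genes. The mean TPM that picked these 88 includes the succinate libraries. Between succinate and cellobiose in the wild type their median was 0.31, against 0.91 for the 13 abundant members, where the rule had asked for a difference.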

How the data were processed

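The deposited values are TPM, computed by the authors for 18 libraries, each summing to 1000000. Per the submitters' processing notes, Salmon 1.10.0 was used. No source used here gives the reference transcripts or the genome build. Read depth cannot be recovered from TPM, so no limit that needs it is stated. Each column carried the library name of 1 sample.

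Values were transformed to log2(TPM + 1), which understates changes of genes with low values. Genes averaging 1 TPM or more (7938) entered a limma 3.58.1 model (R 4.3.3) of 6 group means, whose prior variance followed the mean level. A gene was called at a Benjamini-Hochberg adjusted p under 0.05, over all tested genes, and an absolute log2 difference of at least 1. With 3 libraries against 3 an exact permutation test cannot give a p under 0.1. No test result is given for the contrasts of the rule.

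Same-numbered libraries deviated together without carbon, with r = 0.606, 0.236 and 0.686 (all above 0.1), and not on succinate or cellobiose, so the blocked fit is given for no carbon. Pairing comes from the data, as the labels state no shared batch. The members were chosen with earlier results of these data known. The rule for named genes took the 10 members of highest score, the 5 with the highest mean on succinate, members called and genes at the edge of the rule; all others were named since the set is small.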

Additional observations from a re-analysis of the deposited data

How the results depend on the processing

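The choice of members depended on scaling and on single libraries. Applied anew, the rule chose 14 of the 22 again among 51 genes after median-ratio scaling and 7 of the 22 among 39 after quantile normalization. Leaving out each library in turn, it passed 12 to 28 genes and chose 5 to 22 of the 22 again. The members' share on succinate in the wild type was 9.38% to 12.9% with a library left out. Median-ratio scaling divides each library by a single factor and so leaves that share unchanged. The members' sum after scaling, 18.05% of the deposited total, is not a share of the scaled libraries. The genotype effect on succinate was called for 5 genes with a pseudocount of 5 TPM, 6 after median-ratio scaling, 453 with a replicate block in the fit of all 18 libraries and 1118 with array weights, whose estimation stopped before convergence. Array weights called 4 members there, all lower, and leaving out a library gave 0 to 2 members and 2 to 1093 genes. Without carbon the genotype effect was called for 1 gene with a pseudocount of 0.1 TPM, 19 after median-ratio scaling, 32 after quantile normalization and 342 with array weights (9 members, all lower). With the replicate block in the 6 libraries alone it was 283 genes and 2 members, and leaving out a library gave 2 to 23 genes and 0 members. The block over all 18 libraries moved no count of members called by more than 1.5 times. In the deletion strain, cellobiose against no carbon gave 0 members with a pseudocount of 5 TPM, median-ratio scaling or quantile normalization, 10 with array weights (7 higher and 3 lower), and 0 to 3 with a library left out. The genes called higher and lower there were 367 and 1003, after median-ratio scaling 512 and 733 and after quantile normalization 700 and 708. Succinate against cellobiose in that strain gave 343 to 1467 genes with a library left out, and 454 higher and 660 lower became 653 and 525 after median-ratio scaling and 650 and 566 after quantile normalization. Members called there ran from 3 to 6 over 26 alternatives. RTO4_12665, RTO4_12666 and RTO4_11784 were called in all 26. The causes of these changes were not tested. The medians of the members' differences kept their direction under all 22 alternatives run on them, except for cellobiose against no carbon in the wild type, which ran from -0.22 to 0.66. Array weights were not run on the choice of members.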
